A study of Homo sapiens with 88 samples.

Results

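The HOX cluster genes were the protein-coding genes of the 4 HOX clusters, taken as every symbol made of HOXA, HOXB, HOXC or HOXD followed by digits alone. The array annotation held 28 such genes with 44 probe sets that name a single gene, out of 19775 genes and 41091 probe sets. They were 1 gene of the HOXA cluster on chromosome 7 (HOXA2, with 1 probe set), 10 genes of the HOXB cluster on chromosome 17 (19 probe sets), 9 of the HOXC cluster on chromosome 12 (9 probe sets) and 8 of the HOXD cluster on chromosome 2 (15 probe sets). Other HOXA genes and HOXD3 were not analysed here. No filter on low values was applied, so all 44 probe sets entered every test.

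HOX genes encode homeodomain transcription factors that set position along the body axis in the embryo. Within a cluster the genes stand in a fixed order, and the low-numbered ones, at one end, are used earlier and nearer the head than the high-numbered ones. HOX proteins bind DNA together with cofactors of the TALE class, chiefly the PBX and MEIS proteins. Trithorax-group proteins such as KMT2A keep the clusters on and Polycomb proteins keep them off, and many carcinoma lines hold a HOX pattern of their own.

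The RNA came from 9 established lines of small cell lung cancer (SCLC), a neuroendocrine carcinoma of the lung, and was hybridised to 88 HG-U133 Plus 2.0 arrays by Affymetrix. One arm of each line had the vehicle DMSO, and the other is named 552A in the sample titles. A treatment text in the labels gives GSK2879552 at 1 µM, which blocks the histone demethylase LSD1, beside DMSO. It does not equate that compound with 552A, so the arm keeps the latter name. At days 2, 4 and 7 both arms were taken from 6 lines (COLO668, NCI-H146, NCI-H446, NCI-H510, NCI-H526 and SHP-77), and at day 4 alone from H1417, H2171 and H69. Of the 42 groups of line, arm and day, 39 held 2 arrays, 2 held 3 and 1 held 4. The series text speaks of lines sensitive and resistant to growth inhibition, but the labels used here do not say which is which. Whether the arrays of a group stem from separate cultures is not stated, so p-values measure only the spread between these arrays, which may be technical.

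Levels are the log2 signals that the authors deposited, in which a difference of 1 is a doubling. The median over all probe sets with 1 gene and all arrays was 7.72, and a level above it is called above the median. A level under 6.37, the median over arrays of the lower quartile, is called dim. Array medians over all 54675 probe sets ran from 7.36 to 7.46, and correlations between arrays of a group from 0.971 to 0.998. In 6 arrays the RNA or the spread of values stood apart. In 5 of them, at day 7 of SHP-77 and COLO668, the 3′ signal of the ACTB control exceeded the 5′ signal by more than 0.8, and the sixth was a day 4 DMSO array of NCI-H446. Of the 7 neuroendocrine markers listed, 5 were measured (CHGA, DLL3, INSM1, NCAM1 and SYP), and at least 4 of them were above the median under DMSO in every line. Leukocyte, fibroblast and endothelial markers had mean levels per list of 6.04 to 7.93, other than the endothelial markers of NCI-H446 (mean 9.06, with CDH5 at 10.94 there and dim in the other 8 lines). Single markers were high elsewhere, as COL1A2 at 12.003 in H69 and PECAM1, at 8.06 to 8.40, in all 9 lines. Their part in the HOX levels was not tested.

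Each line carried its own HOX pattern under DMSO, and that pattern varied more between lines than is usual for a gene on these arrays. A gene is described by the probe set with the highest mean signal, and its range is the highest minus the lowest line mean. The median range was 3.42 for the 28 HOX genes and 1.16 for all 19775 genes. A range above 2 was found for 20 of the 28 HOX genes (71.4%) and for 24.6% of all genes. The widest was that of HOXC6, 7.03, followed by HOXB3 at 6.04 and HOXD10 at 5.26. Other probe sets of a gene could differ, with ranges of 0.78 for HOXB3, 0.71 for HOXB8 and 0.34 for HOXB6. For HOXD10 they were 3.22 and 3.00. Over all 44 HOX probe sets 61.4% had a range above 2, beside 22.7% of all probe sets. HOXB1, HOXB13, HOXC8 and HOXD12 had ranges under 1, and HOXD12 was dim in all 9. Lines still differed in them by smaller amounts at day 4, as HOXC8 by 0.42 in H1417 against the other lines. HOXB13 also had a second probe set with a range of 1.25.

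The share of HOX genes above the median lay above that of all genes in some lines and below it in others. Whether it differed between lines was not tested. It ran from 15 of 28 genes in H2171 (53.6%) to 20 of 28 in NCI-H510 (71.4%), beside 56% to 58.3% of all genes. With 60 in place of 50 as the percentile to pass, the counts in COLO668, NCI-H146, NCI-H446 and H2171 were 12, 10, 11 and 9 genes. A higher cut leaves fewer genes of any set, and the share of all genes above it was not computed. The lines differed in which cluster held the genes above the median.

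A test of each line against the mean of the other 8 at day 4 under DMSO called most HOX probe sets in every line (limma, Benjamini-Hochberg adjusted p under 0.05). It called 35 of 44 in SHP-77 beside 47.3% of all probe sets, 34 in NCI-H526 beside 48.3%, and 32 in NCI-H510 beside 50.3%. It called 36 in COLO668 beside 48.9%, 34 in NCI-H146 beside 45.5%, and 33 in NCI-H446 beside 57.8%. In the lines with day 4 alone it called 35 in H69 beside 53.8%, 34 in H2171 beside 49.7%, and 34 in H1417 beside 55.9%. The members' shares, 72.7% to 81.8%, were above the background in each line. H2171 had the most lower calls, 27 probe sets against 7 higher, beside 22.7% lower and 27% higher over all probe sets.

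**Figure D1:**
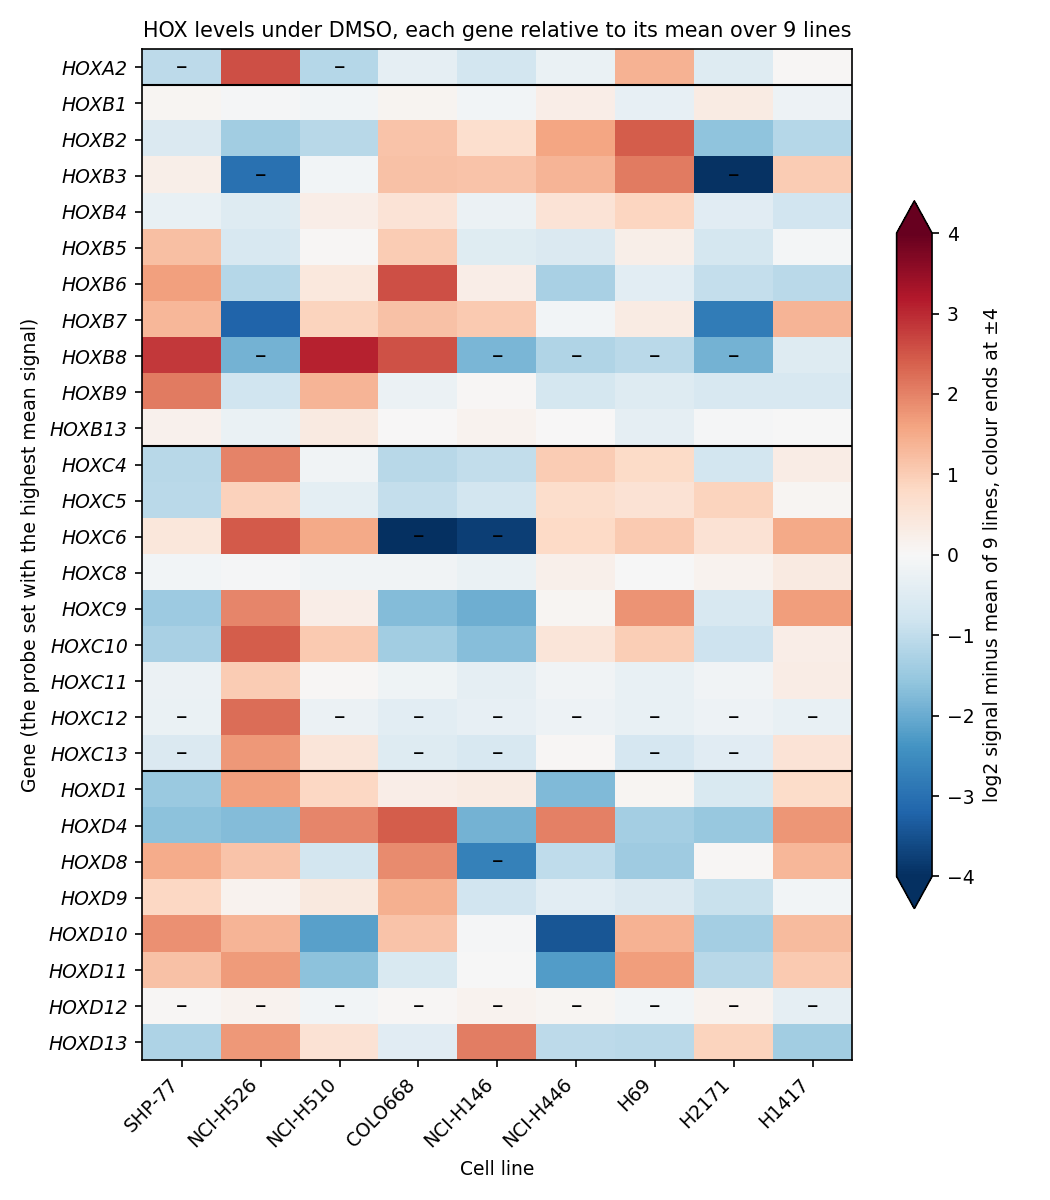
Mean log2 signal under DMSO of each HOX gene in each line (columns), relative to that gene's mean over the 9 lines, for the probe set with the highest mean signal. Dashes mark dim levels and lines part the 4 clusters; the HOXC genes stand highest in NCI-H526 and HOXB8 in SHP-77, NCI-H510 and COLO668.

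NCI-H526 was high in HOXC. Its HOXC genes from HOXC4 to HOXC13, other than HOXC8, were above the median, and the same 8 of 9 genes had their highest level of any line there. HOXC6 stood at 12.21 ± 0.05 (SD, n = 6 arrays), HOXC10 at 11.41 ± 0.07 and HOXC4 at 10.78 ± 0.11. HOXC12 (8.62 ± 0.13) and HOXC13 (8.29 ± 0.19), at the posterior end of the cluster, were above the median in no other line, and HOXC12 was dim in the other 8. HOXA2, a gene of hindbrain and neural crest patterning, was also highest there, at 9.76 ± 0.17, with H69 next at 8.58 ± 0.14 and the other lines between 6.06 and 7.22.

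The HOXB cluster of NCI-H526 ran the other way. Only HOXB2, HOXB4 and HOXB5 of its 10 genes were above the median. HOXB7 was at 6.85 ± 0.28, against 9.95 or more in all other lines but H2171 (7.25 ± 0.25). HOXB3 was at 6.24 ± 0.14 in NCI-H526 and 5.27 ± 0.03 in H2171, dim in both, and at 9.10 or more elsewhere. The other HOXB3 probe set was not dim in NCI-H526 (7.44) and H2171 (7.57), and its highest level was 8.15, in H69. NCI-H526 also differed in tuft cell markers, since POU2F3, the master factor of tuft cells, was at 12.48 there and between 4.54 and 4.79 in the other lines. Of the 4 tuft markers, 3 were above the median in NCI-H526 and 0 to 2 in the others. Whether that identity has a part in the HOX pattern was not tested.

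SHP-77, COLO668 and NCI-H510 had the most HOXB genes above the median. They were all 10 in SHP-77 and COLO668 and 9 in NCI-H510, with NCI-H146 next at 8. HOXB8 was above the median in SHP-77, COLO668 and NCI-H510 only, at 9.84 ± 0.20, 9.57 ± 0.28 and 10.08 ± 0.37. It was between 5.12 and 6.49 in the other 6. HOXB9 was highest in SHP-77 (10.32 ± 0.28) and NCI-H510 (9.61 ± 0.21), and HOXB6 in COLO668 (10.92 ± 0.06) and SHP-77 (10.01 ± 0.17). Not every HOXB gene was high there. At day 4, against the mean of the other lines, HOXB2 was lower in NCI-H510 (−1.19) and SHP-77 (−0.72) and higher in COLO668 (1.34). HOXB4 was lower in SHP-77 (−0.43) and higher in NCI-H510 (0.40) and COLO668 (0.58), and HOXB9 was lower in COLO668 (−0.34). The 3 lines parted in HOXC: HOXC6 was dim in COLO668 (5.18 ± 0.12) and at 11.25 ± 0.14 in NCI-H510 and 10.20 ± 0.18 in SHP-77.

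HOXB2 and HOXB4 were above the median in all 9 lines, and HOXB3 in all but NCI-H526 and H2171. H69 was the highest line for each of these genes, and H1417 the lowest for HOXB4 (8.47). At day 4 HOXB2 (−1.20) and HOXB4 (−0.84) were lower in H1417 than the mean of the other lines. HOXB2, a gene of hindbrain segments, was at 12.76 ± 0.01 in H69 (n = 2), 11.92 ± 0.41 in NCI-H446 (n = 7) and 9.21 ± 0.06 in H1417 (n = 2). HOXB3 was at 11.30 ± 0.06, 10.58 ± 0.24 and 10.24 ± 0.12 in the same lines. COLO668 and NCI-H146 lay in the same range, with HOXB2 at 11.49 and 11.02 and HOXB3 at 10.37 and 10.36. HOXC9, a gene of thoracic position, was at 10.17 ± 0.16 in H69, 10.03 ± 0.00 in H1417 and 8.43 ± 0.30 in NCI-H446, and was at 6.40 ± 0.51 in NCI-H146. NCI-H146 resembled COLO668 in its HOXC cluster, with HOXC6 dim at 5.97 ± 0.22, but lacked HOXB8 signal.

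In HOXD, neighbouring genes did not always go together. HOXD4 was at 10.54 to 11.19 in COLO668, NCI-H446, NCI-H510 and H1417 and at 6.88 to 7.40 in the other 5 lines, with nothing between. HOXD10 was high in SHP-77 (11.70 ± 0.05), H69, NCI-H526, H1417 and COLO668. It was low in NCI-H510 (7.70 ± 0.33) and NCI-H446 (6.45 ± 0.44), where HOXD11 was low as well, at 7.13 ± 0.18 and 6.56 ± 0.29. In COLO668 the HOXD10 probe sets disagreed. At day 4 under DMSO they differed from the mean of the other lines by 1.47, 1.27 and −0.90. HOXD13, the limb and urogenital gene at the posterior end, was highest in NCI-H146 (10.50 ± 0.11) and NCI-H526 (10.18 ± 0.08), then H2171 (9.33 ± 0.03) and NCI-H510 (9.02 ± 0.08). NCI-H510 thus held HOXD1, HOXD4, HOXD8, HOXD9 and HOXD13 above the median, while HOXD11 was below it and HOXD10 lay at it within its spread.

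Treatment with 552A moved HOX genes mostly by small amounts, and most of the calls came from NCI-H510 and COLO668. The response is the mean over days of 552A minus DMSO, on the log2 scale. Over 44 probe sets and 9 lines, 35 of 396 pairs were called, or 8.84%, beside 5.98% over all probe sets and lines. Of the 35, 23 were higher and 12 lower under 552A. In 29 the change was under 0.5, and in 1 it was above 1. At least 1 probe set was called for 17 of the 28 genes, 8 of them in 1 line only. The other 11 were HOXA2, HOXB1, HOXB2, HOXB4, HOXB6, HOXC8, HOXC9, HOXC12, HOXC13, HOXD12 and HOXD13. The share of all genes with a called probe set in at least 1 line was not computed.

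Line by line, NCI-H510 had the most calls. There 12 HOX probe sets of 11 genes rose, beside 5.53% of all probe sets that rose, and 1 fell, beside 3.67%. In COLO668 6 rose (7.56% of all) and 2 fell (4.97%). In NCI-H526 4 rose (6.73%) and 0 fell (6%), with 10 at an unadjusted p under 0.05 (22.7%, beside 22% of all).

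The remaining lines had lower calls or none. In SHP-77 4 fell (2.19% of all) and 0 rose (1.98%), and in NCI-H146 3 fell (1.31%) and 0 rose (2.27%), with 7 (15.9%, beside 18.3% of all) and 8 (18.2%, beside 10.8%) at an unadjusted p under 0.05. In H1417 1 rose (3.09%) and 2 fell (2.04%). None was called by limma in NCI-H446 (3.07% of all), H69 (2.34%) and H2171 (1.04%), where 4 (9.09%), 4 (9.09%) and 2 (4.55%) had an unadjusted p under 0.05, beside 12.4%, 9.64% and 7.47% of all. Read against the background of either direction, NCI-H510 stood at 13 of 44 (29.5%) beside 9.2%, COLO668 at 8 (18.2%) beside 12.5%, SHP-77 at 4 (9.09%) beside 4.17%, NCI-H146 at 3 (6.82%) beside 3.58% and H1417 at 3 (6.82%) beside 5.12%. NCI-H526, at 4 (9.09%) beside 12.7%, lay under its background. Leaving out 1 array at a time took the count of HOX genes called in COLO668 from 7 to between 2 and 6, and in NCI-H146 from 2 to between 0 and 2. Shares of all probe sets called in those fits were not computed.

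**Figure D2:**
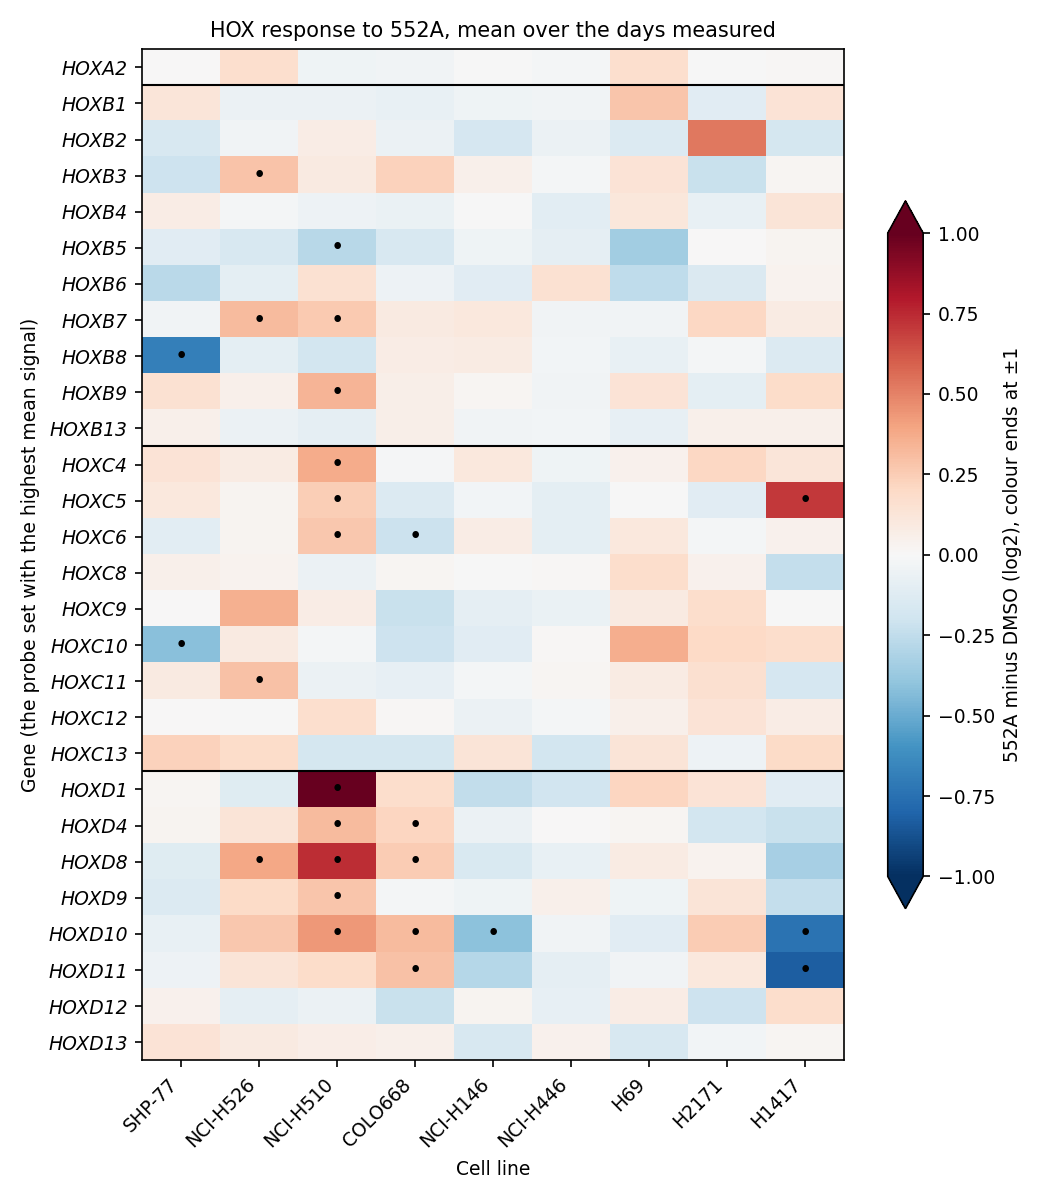
Difference 552A minus DMSO (log2, mean over the days measured) of each HOX gene in each line, for the probe set with the highest mean signal; dots mark calls at an adjusted p under 0.05. The HOXD block is mostly red in NCI-H510 and mostly blue in NCI-H146 and H1417; the colour of HOXD1 in NCI-H510, 1.51, lies beyond the end of the scale.

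The HOXD cluster held the largest responses. HOXD1 and HOXD8 belong to its anterior and central part, and HOXD10 and HOXD11 to the posterior group that patterns limb and trunk. The 250 bases before the start of each are shown, since these are the 4 HOXD genes that differed most between lines. They come from RefSeq on GRCh38.p14, all on the plus strand, at chr2:176188418-176188667 for HOXD1, chr2:176129455-176129704 for HOXD8, chr2:176116528-176116777 for HOXD10 and chr2:176107030-176107279 for HOXD11. Capitals mark matches on either strand to the GC box GGGCGG, the CCAAT box CCAAT, the TATA box TATAAA and the HOX-PBX site TGATTNAT.
HOXD1: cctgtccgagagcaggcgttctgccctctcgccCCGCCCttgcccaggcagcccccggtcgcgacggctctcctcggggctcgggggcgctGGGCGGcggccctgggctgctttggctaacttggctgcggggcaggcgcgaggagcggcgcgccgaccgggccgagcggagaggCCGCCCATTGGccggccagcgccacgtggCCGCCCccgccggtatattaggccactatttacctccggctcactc
HOXD8: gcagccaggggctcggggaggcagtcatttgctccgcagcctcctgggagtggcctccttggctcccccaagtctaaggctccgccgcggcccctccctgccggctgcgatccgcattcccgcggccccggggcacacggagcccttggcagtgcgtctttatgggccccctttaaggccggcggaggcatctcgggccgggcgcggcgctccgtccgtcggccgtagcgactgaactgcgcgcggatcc
HOXD10: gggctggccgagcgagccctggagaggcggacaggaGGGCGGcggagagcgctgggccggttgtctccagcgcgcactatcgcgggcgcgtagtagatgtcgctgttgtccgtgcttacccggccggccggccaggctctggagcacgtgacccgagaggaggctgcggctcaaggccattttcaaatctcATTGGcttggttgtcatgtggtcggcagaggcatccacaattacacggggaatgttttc
HOXD11: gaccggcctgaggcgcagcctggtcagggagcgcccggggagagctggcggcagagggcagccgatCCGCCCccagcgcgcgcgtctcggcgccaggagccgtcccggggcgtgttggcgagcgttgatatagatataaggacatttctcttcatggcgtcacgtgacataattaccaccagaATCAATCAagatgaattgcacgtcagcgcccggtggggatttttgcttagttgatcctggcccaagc

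The 4 windows differed in these letters. HOXD1 held 4 GC boxes and a CCAAT box, of which 1 GC box adjoined the CCAAT box without overlap. HOXD10 held 1 GC box and 1 CCAAT box, HOXD11 held 1 GC box and 1 HOX-PBX match (ATCAATCA, 67 bases before the start), and HOXD8 held none of the 4 motifs. Among 35116 RefSeq promoters of that length, 42.6% held the GC box, 32% the CCAAT box, 10.7% the TATA box and 2.48% the HOX-PBX site. HOXD1 had 31 CG pairs in its window and HOXD8 28, HOXD10 and HOXD11 23 each, beside a median of 11 over all promoters. RefSeq windows were at hand for 11 of the 28 genes. A match of letters is a description and not a measured site.

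HOXD1 rose in NCI-H510, the largest HOX response in the data. Its DMSO arrays there read 10.20 and 10.02 at day 2, 10.18 and 10.31 at day 4, and 10.67 and 10.63 at day 7. The 552A arrays read 11.52 and 11.30, 11.95 and 11.91, and 12.35 and 12.02 on the same days. Every 552A array lay above every DMSO array. The response was 1.51 ± 0.09 (SE), or 2.85-fold, with an adjusted p of 6.56e-19 (limma). By day it was 1.30, 1.69 and 1.54, called on each day, beside 1.11%, 1.79% and 2.34% of all probe sets higher.

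No other line shared that rise. Under DMSO HOXD1 was highest in NCI-H526 (11.15 ± 0.05), then NCI-H510 (10.33 ± 0.26) and H1417 (10.23 ± 0.10), which lay within 1 SD of each other. NCI-H146 (9.83 ± 0.23) and COLO668 (9.77 ± 0.10) did not differ beyond their spread either, and H69 (9.58 ± 0.03), H2171 (8.92 ± 0.06), SHP-77 (8.04 ± 0.17) and NCI-H446 (7.75 ± 0.40) followed. The response outside NCI-H510 lay between −0.24 in NCI-H146 and 0.21 in H69, and none was called. At day 4 alone HOXD1 was called lower in NCI-H446, by −0.50 (adjusted p 0.0302, limma, beside 1.57% of all probe sets lower), but that rests on 1 DMSO array. The DMSO arrays read 7.55, 8.66 and 7.74 and the 552A arrays 7.37 and 7.59, and the array at 8.66 is one of the 6 that stood apart. The other HOXD1 probe set was dim in all lines (4.42 to 4.84) and its responses, from −0.30 to 0.12, were not called.

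HOXD8 rose in 3 lines. In NCI-H510 its DMSO arrays read 7.84 and 8.29 at day 2, 8.42 and 8.37 at day 4, and 8.61 and 8.41 at day 7, and its 552A arrays 8.81 and 8.95, 9.14 and 9.02, and 9.27 and 9.21. The arms did not overlap, and the response was 0.74 ± 0.09 (1.67-fold, adjusted p 2.04e-09, limma), with 0.81, 0.68 and 0.73 by day. In NCI-H526 the 6 DMSO arrays read 10.11 to 10.28 and the 7 arrays under 552A 10.48 to 10.65, again without overlap, a response of 0.39 ± 0.08 (adjusted p 0.000529). In COLO668 it was 0.25 ± 0.09 (adjusted p 0.0462) with overlapping arms, and the call was lost without the arrays that stood apart (0.23, adjusted p 0.0839). In NCI-H146, where HOXD8 was dim (6.36 ± 0.30), the DMSO arrays of day 4 read 6.36 and 6.81 and the 552A arrays 5.74 and 6.17, a difference of −0.63 (adjusted p 0.0218, beside 0.19% of all lower). The mean over days there was −0.15 and was not called, nor was the response of −0.34 in H1417 (adjusted p 0.255).

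HOXD10 was the only HOX gene called in 5 lines, and in both directions. It has 3 probe sets, of which the one with the highest mean signal is called the main one. In H1417 the DMSO arrays of the main one read 11.07 and 11.19 and the 552A arrays 10.28 and 10.50, a fall of 0.74 on the log2 scale (SE 0.18, adjusted p 0.00655, limma). In NCI-H146 the response was −0.41 ± 0.11 (adjusted p 0.0121) and by day −0.14, −0.41 and −0.68, of which day 7 alone was called (adjusted p 0.037, beside 0.584% of all lower). At day 7 there the DMSO arrays read 9.83 and 9.80 and the 552A arrays 9.21 and 9.05.

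It rose elsewhere. In NCI-H510 the DMSO arrays of the main probe set ran from 7.18 to 8.16 and the 552A arrays from 7.66 to 8.57, a response of 0.43 ± 0.11 (adjusted p 0.00331). In COLO668 it was 0.32 ± 0.11 (adjusted p 0.0385). In SHP-77 a lower call came from a second probe set (−0.31, adjusted p 0.0451), while the main one showed −0.07 and was not called, and the lower call was lost without the arrays that stood apart (−0.24, adjusted p 0.109). All 3 probe sets had the same sign within each of the other 4 lines. They read −0.74, −0.39 and −0.58 in H1417, −0.41, −0.36 and −0.33 in NCI-H146, 0.43, 0.17 and 0.28 in NCI-H510, and 0.32, 0.36 and 0.25 in COLO668.

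HOXD11, the next gene along the cluster, fell in H1417 and rose in COLO668. In H1417 it read 9.81 and 9.88 under DMSO and 8.83 and 9.21 under 552A, a response of −0.82 ± 0.15 (adjusted p 0.000141, limma). In COLO668 it was 0.29 ± 0.09 (adjusted p 0.0187), and at day 7 the DMSO arrays read 8.18 and 8.54 and the 552A arrays 8.98 and 8.62. In NCI-H146 it was −0.29, which was not called.

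H1417 had 2 arrays an arm, and its calls use the spread of all 88 arrays. With its own 4 arrays alone HOXD11, HOXD10 and HOXC5 had adjusted p-values of 0.118, 0.0962 and 0.0732. Those 3 calls were thus lost, and the values were unchanged.

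HOXD4 and HOXD9 rose by less. HOXD4 in NCI-H510 read 10.60 to 10.90 under DMSO and 10.98 to 11.15 under 552A, a response of 0.31 ± 0.07 without overlap (adjusted p 0.000951). In COLO668 it was 0.21 (adjusted p 0.0334), almost all of it from day 7 (0.56, adjusted p 0.00062), when 7119 probe sets (17.3%) were called. HOXD9 was called in NCI-H510 alone, at 0.28 ± 0.08 (adjusted p 0.0153). The other probe sets were not called, at 0.03 in NCI-H510 and −0.08 in COLO668 for HOXD4 and −0.09 in NCI-H510 for HOXD9. Of the 8 HOXD genes, 7 had a response above 0 in NCI-H510, 6 in COLO668 and NCI-H526, 1 in NCI-H146 and 2 in H1417, called or not. It was 4 in SHP-77 and H69, 5 in H2171 and 3 in NCI-H446. The median response of all probe sets lay between −0.033 in COLO668 and 0.0073 in NCI-H446. Whether these counts differ from those of other genes was not tested.

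**Figure D3:**
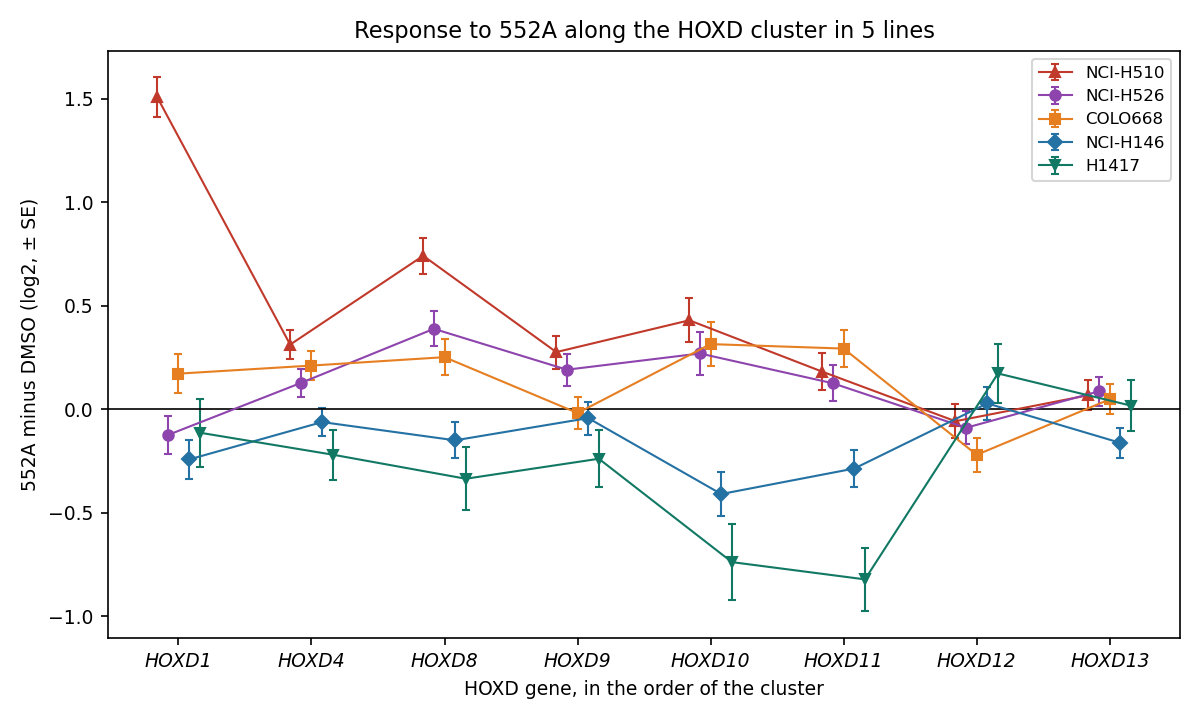
Response to 552A (log2, mean over the days measured, bars ± SE) of the 8 HOXD genes in the order of the cluster, in the 5 lines named in the key. HOXD1 at 1.51 in NCI-H510 is the highest point and HOXD11 at −0.82 in H1417 the lowest.

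**Figure D4:**
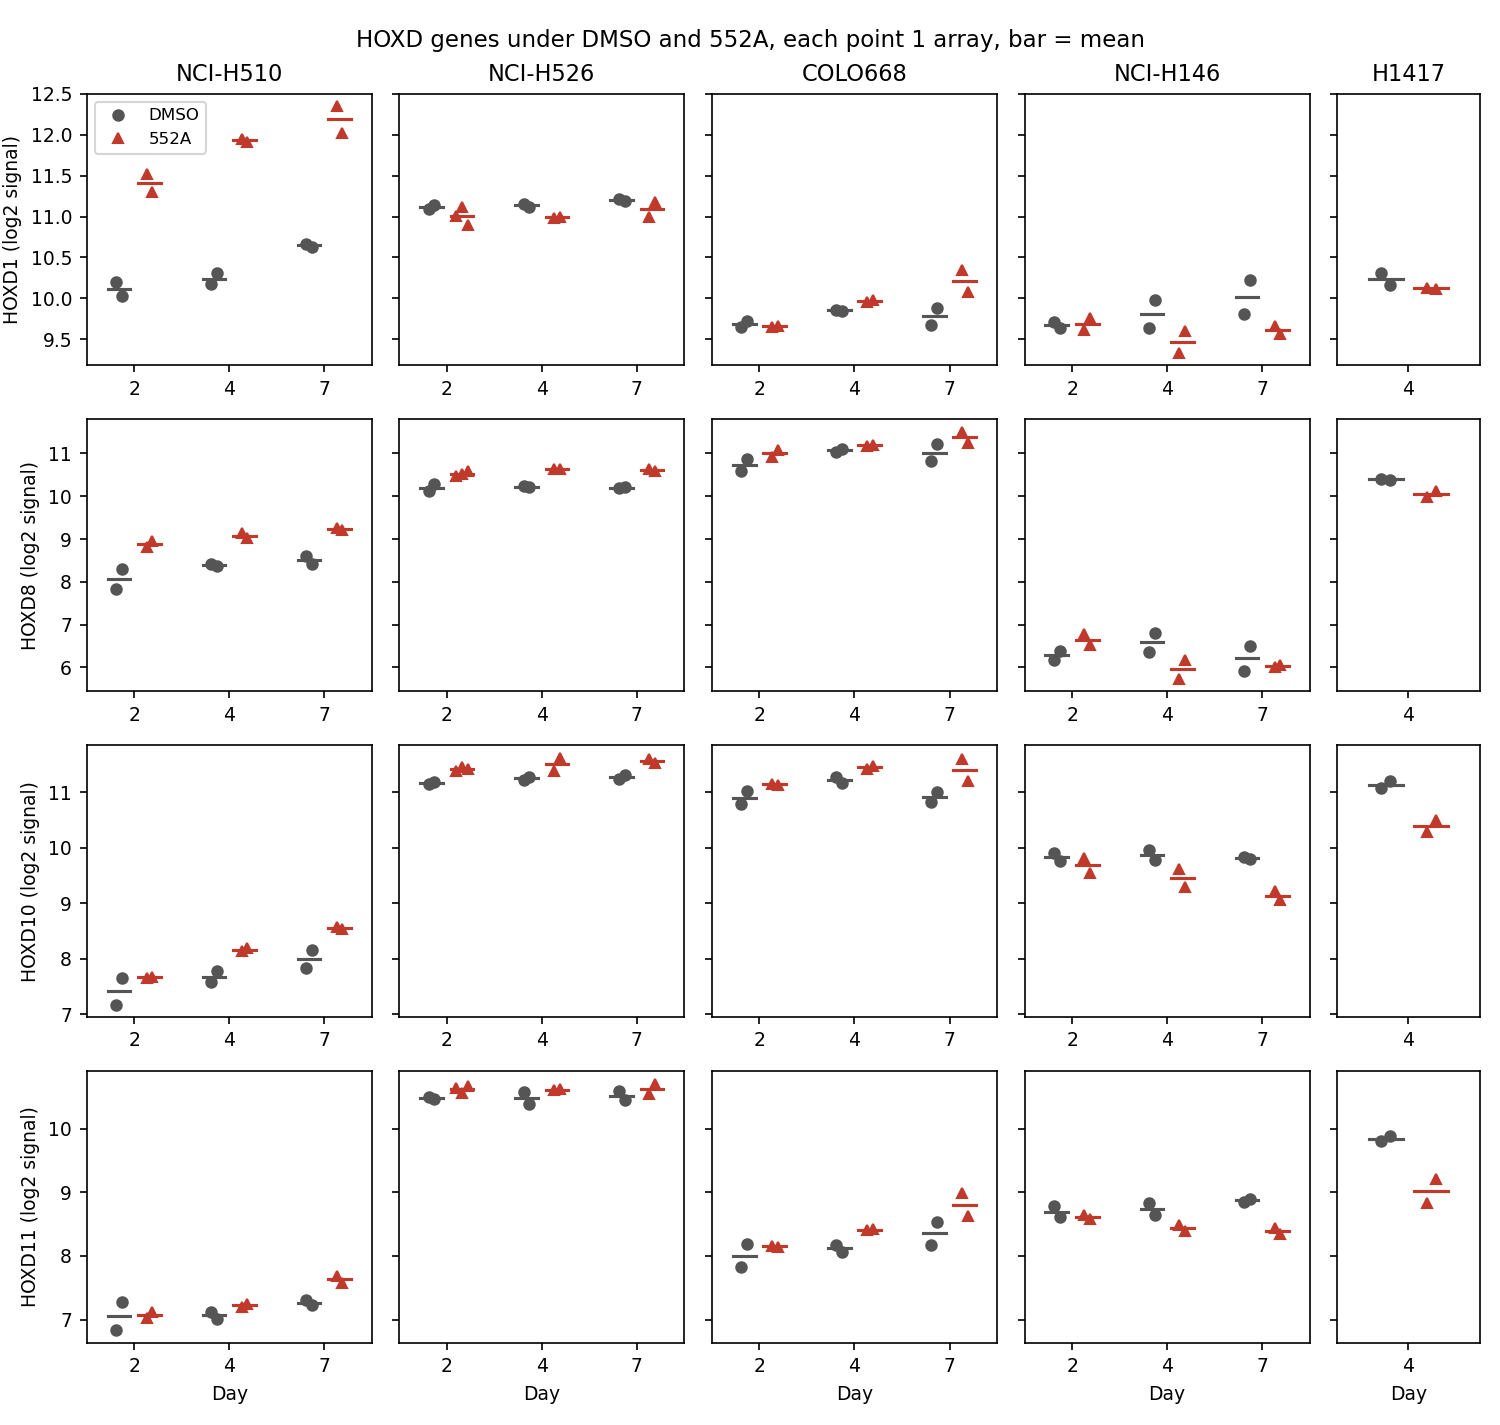
Log2 signal on each array (points, with the group mean as a bar) of HOXD1, HOXD8, HOXD10 and HOXD11 by day in 5 lines under DMSO (grey circles) and 552A (red triangles); H1417 was sampled at day 4. In NCI-H510 the HOXD1 arrays under 552A lie from 11.30 to 12.35, all above the DMSO arrays.

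In HOXC 3 anterior genes rose in NCI-H510. HOXC4 read 8.62 to 8.72 on the 6 DMSO arrays there and 8.90 to 9.36 on the 6 under 552A. The response was 0.37 ± 0.09 without overlap (adjusted p 0.0013, limma), and HOXC5 (0.25, adjusted p 0.00806) and HOXC6 (0.27, adjusted p 0.00192) rose as well. These 3 genes share a start in the RefSeq annotation and their spans overlap, so their probe sets may not be independent. HOXC10 in NCI-H510 showed −0.02.

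HOXC5 gave the largest rise outside HOXD. In H1417 it read 8.94 and 8.81 under DMSO and 9.59 and 9.58 under 552A, a response of 0.71 ± 0.12 (1.64-fold, adjusted p 1.12e-05). HOXC4 and HOXC6, which overlap it, did not pass the test there. HOXC6 fell in COLO668 by 0.21 on the log2 scale (adjusted p 0.0169) from a level that was dim in both arms.

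HOXC10 fell in SHP-77 at day 4. The DMSO arrays of that day read 7.71 and 7.91 and the 552A arrays 6.93 and 6.67, a difference of −1.01 ± 0.14 (adjusted p 1.12e-05, beside 0.0925% of all lower). At day 2 the difference was −0.16 and at day 7 −0.10, neither called, with DMSO arrays of 7.46 and 7.95 and 552A arrays of 7.40 to 7.80 at day 7. The mean over days was −0.42 ± 0.08 (adjusted p 0.000326). HOXC11 rose in NCI-H526 by 0.29 ± 0.08 (adjusted p 0.00661).

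In HOXB, HOXB8 fell in SHP-77, and its response was not called in any other line. In SHP-77 the 6 DMSO arrays read 9.54 to 10.16 and the 8 arrays under 552A 8.50 to 9.55, a response of −0.68 ± 0.13 (adjusted p 0.000359, limma). By day it was −0.55, −0.50 and −0.996, of which day 7 was called (adjusted p 0.00115, beside 2.29% of all lower). At day 7 the ACTB 3′ excess was 1 on average in the DMSO arrays and 0.54 in the 552A arrays, and without the arrays that stood apart the response was −0.64 (adjusted p 0.0031). The other probe set of HOXB8 gave −0.03 in SHP-77 and was not called. In NCI-H510 and COLO668 the mean responses of −0.18 and 0.08 were not called, but single days were. In NCI-H510 HOXB8 was lower at day 7 alone, by −0.85 (adjusted p 0.0241, beside 1.25% of all lower), and in COLO668 higher at day 7, by 0.80 (adjusted p 0.0138, beside 9.8% of all higher). The COLO668 response at day 7 exceeded that at day 2 by 1.26 (adjusted p 0.0312, beside 1.43% of all). There the arrays of day 2 read 9.55 and 9.87 under DMSO and 9.27 and 9.22 under 552A, and those of day 7 read 9.52 and 9.06 and 10.06 and 10.11. At day 7 the ACTB 3′ excess in COLO668 was 0.703 on average under DMSO and 0.965 under 552A, and the arrays at 9.52 and 10.11 were among the 6 that stood apart. Its part in the day 7 calls of COLO668 was not tested. One other HOX probe set, the second one of HOXD10 in COLO668, differed between day 7 and day 2 (0.99, adjusted p 0.018).

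**Figure D5:**
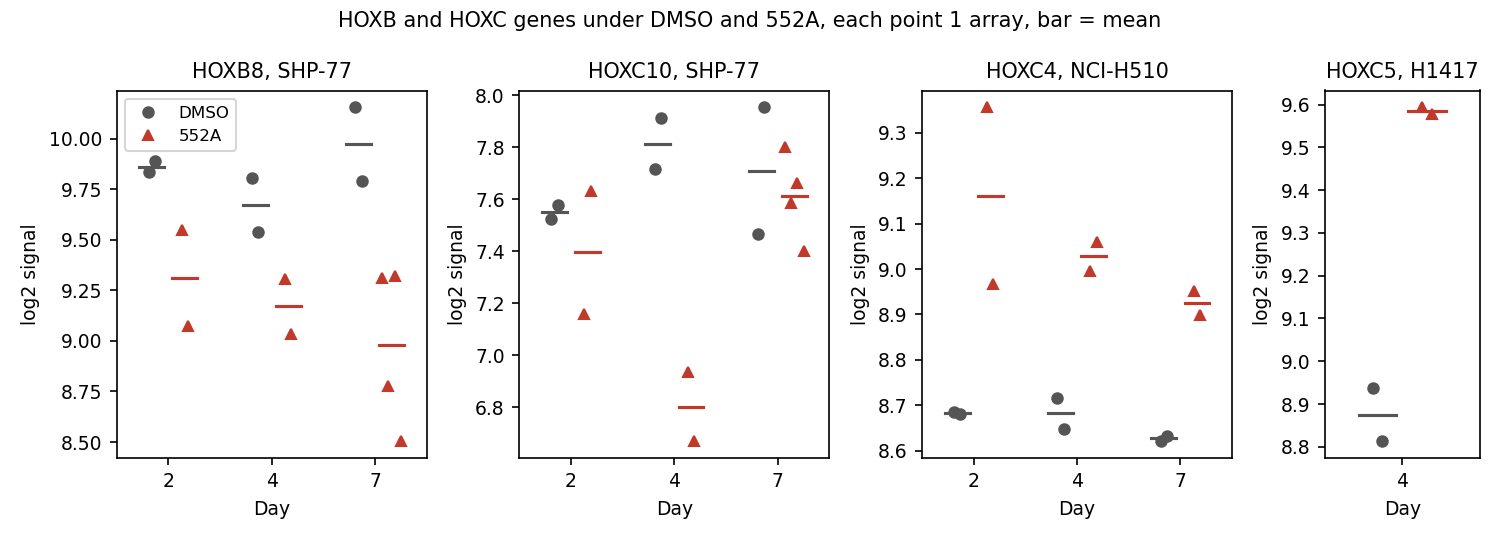
Log2 signal on each array (points, with the group mean as a bar) by day under DMSO (grey circles) and 552A (red triangles) of HOXB8 and HOXC10 in SHP-77, HOXC4 in NCI-H510 and HOXC5 in H1417; each panel has its own axis. The HOXC10 arrays of day 4 under 552A, at 6.93 and 6.67, lie below all others of SHP-77.

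HOXB5 was the gene called lower in the most lines, 4, but its 2 probe sets were not called in the same ones. The one with the higher mean fell in NCI-H510 by 0.28 on the log2 scale (adjusted p 0.00136), with all 552A arrays below all DMSO arrays (8.49 to 8.74 against 8.74 to 9.17). The other, of a type that can match several sequences, fell in SHP-77 (−0.32, adjusted p 0.00277), COLO668 (−0.26, adjusted p 0.00969) and NCI-H146 (−0.26, adjusted p 0.0276). With 1 array left out at a time, the NCI-H146 call was lost in 8 of 12 fits. The COLO668 call was lost in 1 of 12 and the SHP-77 call in 0 of 14. HOXB7 rose in NCI-H526 (0.32, adjusted p 0.00101) from a low level and in NCI-H510 (0.26, adjusted p 0.0174), where a second probe set gave 0.25. HOXB9 rose in NCI-H510 (0.34, adjusted p 0.0073) and HOXB3 in NCI-H526 (0.29, adjusted p 0.0118), from a dim level. Other probe sets were not called there, at 0.31 for HOXB9, −0.01 for HOXB3 and 0.07 and 0.14 for HOXB7 in NCI-H526. HOXB13 rose by one probe set in NCI-H510 (0.33, adjusted p 0.00294) and COLO668 (0.23, adjusted p 0.0451). The probe set of HOXB13 with the higher mean gave −0.09 and 0.06 there, so the rise depends on the probe set. HOXA2 was not called in any line, with responses from −0.05 to 0.17.

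No HOX gene was called in the test shared by the lines. With each line as 1 replicate at day 4, 0 of 44 probe sets were called by limma, beside 0.0243% of all, and 4 had an unadjusted p under 0.05, or 9.09% beside 9.71% of all. By the probe set with the highest mean of each gene, the smallest p belonged to HOXB5 (−0.11 ± 0.04, lower in 7 of 9 lines, adjusted p 0.394). HOXB7 followed with 0.12 (higher in 7 of 9, adjusted p 0.437), then HOXC5 with 0.12 (adjusted p 0.643) and HOXB6 with −0.08 (adjusted p 0.661). Other probe sets of HOXB7 (0.10, adjusted p 0.435) and HOXB3 (0.08, adjusted p 0.502) were the remaining 2 of the 4.

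The lines differed in their response instead. A moderated F test over the 6 lines with 3 days called 17 of the 44 probe sets (38.6%) of 15 genes, beside 23.5% of all. The smallest adjusted p-values were those of HOXD1 (2.74e-16), HOXD8 (2.18e-08), HOXD10 (5.43e-05 by its main probe set) and HOXC6 (0.000338). Over all 9 lines at day 4, a test added after the data were seen, it called 6 probe sets (13.6%), beside 9.38% of all, and the genes were HOXC5, HOXC10, HOXD1, HOXD8, HOXD10 and HOXD11.

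The cofactors of HOX proteins responded in 3 of the 8 genes measured, of 9 listed. MEIS1, which stabilises HOX binding, was low in NCI-H526 under DMSO (7.69, against 8.17 to 11.06 elsewhere) and rose there by 0.82 ± 0.07 (adjusted p 2.65e-13, limma). It also rose in H1417 (0.46, adjusted p 0.0219) and fell in NCI-H510 (−0.26, adjusted p 0.0176). Its other probe set had the same sign in each of these 3 lines and was called in NCI-H526. PBX3, a direct partner of HOX proteins, was low in NCI-H526 too (6.46, against 9.04 to 11.39 elsewhere) and rose there by 0.68 ± 0.07 (adjusted p 6.91e-11). PBX3 rose in COLO668 (0.31), NCI-H146 (0.36) and H1417 (0.49) as well. MEIS2 fell in SHP-77 (−0.37, adjusted p 4.27e-05) and NCI-H526 (−0.19). Of the 72 pairs of cofactor and line 9 were called (12.5%), beside 5.98% of all pairs. Here and in the lists below, a gene was counted by its probe set with the highest mean alone. The 5.98% covers every probe set, so the shares come from unlike sets.

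For regulators of the clusters 16 of 216 pairs were called (7.41%, beside 5.98% over every probe set). They concerned 12 of the 24 measured, of 28 listed. CYP26B1, which breaks down retinoic acid, a signal that opens HOX clusters, rose in NCI-H510 (0.50 ± 0.11, adjusted p 0.000762) and fell in NCI-H146 (−0.36, adjusted p 0.0438). Its other probe set had the opposite sign in both lines (−0.06 and 0.06) and was not called. RARB, a retinoic acid receptor, rose in H69 (0.48, adjusted p 0.0178), and CBX7, a Polycomb subunit, fell there (−0.47, adjusted p 0.0181). KMT2A, the methyltransferase that keeps HOX genes on, rose in NCI-H526 (0.37, adjusted p 1.1e-05) and COLO668 (0.24, adjusted p 0.00707). None of the 4 other probe sets of RARB was called in H69, and of the 10 others of KMT2A 7 were called higher in NCI-H526 and 1 in COLO668, where 4 had the opposite sign. Of the 7 ParaHox and related homeobox genes measured, MNX1 fell in NCI-H526 (−0.52, adjusted p 2.87e-07) and GSX2 in COLO668 (−0.19, adjusted p 0.0349), 2 of 63 pairs (3.17%).

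Of 9 noncoding transcripts of the clusters, 1 was called, in 1 of 81 pairs (1.23%, beside 5.98% over every probe set). HOTAIR, which lies in the posterior HOXC cluster, was at 7.37 under DMSO in NCI-H526 and at 3.73 to 4.95 in the other lines. It rose in NCI-H526 by 0.72 ± 0.12 (adjusted p 9.97e-06), in the line where HOXC12 and HOXC13 were above the median. In H2171, where HOXC12 and HOXC13 were dim, its response was 0.74 and was not called (adjusted p 0.103, limma). The neighbours of the clusters, the 3 nearest protein-coding genes on each side, gave 12 called pairs of 198 (6.06%), over 22 genes measured of 24. TTLL6 (0.46, adjusted p 0.000712) and CALCOCO2 (0.43, adjusted p 2.74e-09), both beside HOXB, rose in COLO668. SKAP1 (−0.42, adjusted p 0.00704), beside HOXB, and SKAP2 (−0.29, adjusted p 0.000789), beside HOXA, fell in NCI-H510. Of the 5 other probe sets of SKAP2 1 was called lower there and 2 had the opposite sign, and of the 3 others of CALCOCO2 2 were called higher in COLO668 and 1 had the opposite sign. MTX2, the neighbour of HOXD1, gave 0.15 in NCI-H510 and was not called there (adjusted p 0.068), and it was called lower in NCI-H526 (−0.19, adjusted p 0.0067).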

How the data were processed

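The authors deposited log2 expression values per probe set for 88 HG-U133 Plus 2.0 arrays. Per the labels' protocols, total RNA was labelled and hybridised by the standard Affymetrix procedure, while the summarisation and normalisation of the signals are steps the sources used here do not give. All values were used as deposited. Probe sets took their gene from the platform annotation: of 54675, 41091 had 1 symbol, 1801 several, 11721 none, and 62 were controls. Chromosomes and promoters came from RefSeq on GRCh38.p14.

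A model with a mean for each of 42 groups (46 residual degrees of freedom) was fitted to all 41091 probe sets in R 4.3.3 with limma 3.58.1 (lmFit, contrasts.fit, eBayes). A call is a Benjamini-Hochberg adjusted p under 0.05 over all of them, two-sided. The response of a line is the mean of its day contrasts. The shared test used each line's day 4 difference as 1 replicate. A gene's level is that of its probe set with the highest mean, with sets ending in _x_at set aside where there was another. The model was tested on simulated data. The number of arrays limits the precision.

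Named were, per line, the 6 called genes with the largest response, the 4 smallest p-values of the shared test, and per list the 4 genes with the largest called response. Other HOX values were added to account for each gene. The members, lists and this rule were chosen with earlier results of these data known.

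Alternatives were quantile normalisation, a filter on dim probe sets, an intensity trend, other choices of probe set, each line's own arrays, the replicate number as a block, and leaving out each array, each line or the 6 arrays that stood apart.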

Additional observations from a re-analysis of the deposited data

Results flagged for a closer look

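Among 56 groups of values checked for a lone outlier, 7 had one. A single check gives about 1 in 20 by chance, but the 56 reuse the same 4 arrays or the same 9 lines. They are thus not independent, and the 7 cannot be set against that rate. In responses at day 4 over 9 lines, the gap from the extreme line to the next was 0.673 of the whole range for HOXD1 (NCI-H510 at 1.69, the others at most 0.21), 0.59 for HOXC10 (SHP-77 at −1.01, the others at least −0.20), 0.524 for HOXB8 (SHP-77 at −0.50) and 0.499 for HOXC5 (H1417 at 0.71). Among the 4 arrays of SHP-77 under 552A at day 7, replicate 3 stood apart for HOXB9 (gap 0.848 of the range, at 10.83 against 11.03 to 11.07) and HOXC4 (0.861, at 8.17 against 7.61 to 7.69), and replicate 1 for HOXC13 (0.858, at 6.28 against 6.15 to 6.17).

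The moderated F test over the 6 lines with 3 days called 23.5% of all probe sets. Its share over main probe sets alone was not computed. By this test the response differed between lines for 13 of the 28 HOX genes, by their main probe set. Their adjusted p-values (limma) were 2.74e-16 for HOXD1, 2.18e-08 for HOXD8, 5.43e-05 for HOXD10, 0.000338 for HOXC6 and 0.00236 for HOXD11. They were 0.00451 for HOXC10, 0.00848 for HOXB8, 0.00965 for HOXB3, 0.0104 for HOXC5 and 0.0129 for HOXC13. For HOXD4, HOXB7 and HOXD9 they were 0.017, 0.0188 and 0.0242. HOXD1, HOXD4, HOXD8, HOXD9, HOXD10, HOXC5 and HOXC6 were highest in NCI-H510, HOXB3, HOXB7 and HOXC10 in NCI-H526, HOXD11 in COLO668, HOXB8 in NCI-H146 and HOXC13 in SHP-77.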

How the results depend on the processing

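Of the 412 recomputed counts, 384 stayed within 1.5 times the reported one, and of 552 recomputed responses 463 kept their direction and side of the threshold, 88 lost the call and 1 reversed. That was HOXB13 in NCI-H510, at 0.33 as reported and −0.088 with the probe set of highest mean (adjusted p 0.614, limma). Genes called within a line became 1 in NCI-H446 with quantile normalisation, 2 in SHP-77 with 1 probe set a gene, 1 in H69 with the mean of all probe sets, and 4 in NCI-H146 without the 6 arrays that stood apart. With a line's own arrays alone they became 3 in COLO668, 4 in NCI-H146 and 0 in H1417. The share of all probe sets called under these settings was not computed. The F test over 9 lines at day 4, added after the data were seen, called 6 genes in place of 15. With the 60th percentile in place of the median, genes above it numbered 12 in COLO668, 10 in NCI-H146, 11 in NCI-H446 and 9 in H2171. The share of all genes above that cut was not computed. The cause of these shifts was not tested.

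Replicate numbers gave no consistent pairing of the arrays. Of 42 same-numbered pairs of a DMSO and a 552A array, 18 had a correlation of their deviations from the group means above 0.1. The median was 0.057, and values ran from −0.536 to 0.57. Where both arms held 2 arrays, the 2 pairs give the same value by construction, so the 42 are not independent. With the replicate block 1 gene was called in H69 in place of 0, and HOXD10 in SHP-77 lost its call (−0.25, adjusted p 0.137, limma). The block gave 12 genes in NCI-H510, 8 in COLO668, 5 in NCI-H526, 3 each in SHP-77 and H1417, 2 in NCI-H146 and 0 in NCI-H446 and H2171, and 17 in the F test. The share of all probe sets called with the block was not computed.

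Leaving out 1 array at a time gave 2 to 6 genes in COLO668, 0 to 2 in NCI-H146, 0 to 1 in NCI-H446 and 0 to 1 in H69. In COLO668 it was 2 without replicate 1 of 552A at day 7 or replicate 2 of DMSO at day 4, 3 without replicate 1 of DMSO at day 2, and 4 without either 552A array of day 4. In NCI-H146 it was 0 without replicate 1 of DMSO or replicate 2 of 552A at day 4. It was 1 there without replicate 2 of either arm at day 2, replicate 2 of DMSO or 1 of 552A at day 4, or replicate 1 of DMSO or 2 of 552A at day 7. In NCI-H446 it was 1 without replicate 1 of DMSO at day 4, and in H69 without replicate 2 of 552A. Shares of all probe sets called in these fits were not computed. Of 25 named responses, 13 kept their call without each array and 12 lost it without at least 1. Most often lost were those of HOXD10 in SHP-77 (10 of 14 fits) and HOXB13 in COLO668 (9 of 12). HOXD8 in COLO668 and HOXB5 in NCI-H146 followed, with 8 of 12 each.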
